A study of Mus musculus with 48 samples.

Results

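The genes described here encode heterogeneous nuclear ribonucleoproteins (hnRNPs) and related nuclear RNA-binding proteins. They are 32 of the 23420 genes in the deposited gene table and were taken by symbol: 6 of the hnRNP A/B type (Hnrnpa0, Hnrnpa1, Hnrnpa2b1, Hnrnpa3, Hnrnpab and Hnrnpd), 2 of the C type (Hnrnpc and Raly), 6 with KH domains (Hnrnpk, Pcbp1, Pcbp2, Pcbp3, Pcbp4 and Khsrp), Hnrnpl and Hnrnpm, 2 of the R type (Hnrnpr and Syncrip), 3 of the U type (Hnrnpu, Hnrnpul1 and Hnrnpul2), the related genes Ewsr1 and Taf15, Tardbp, Tia1 and Tial1, the paraspeckle genes Sfpq, Nono and Pspc1, Matr3, and the DEAD-box helicase genes Ddx5 and Ddx17. The hnRNP H and F genes were left out of the group by that choice. All 32 passed the filter on low counts and were among the 16716 genes tested.

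Striatal RNA was sequenced from 16 mice of about 50 days of age. Of these, 8 carried a 112 kb congenic segment and 8 were wild-type littermates of the C57BL/6J (B6) strain, with 4 males and 4 females in each genotype. From the published work on this line, as background, the segment derives from the DBA/2J strain and holds the genes Hnrnph1 and Rufy1 of chromosome 11. Punches of 3 mm taken on either side of the brain were combined for each animal, so each value is a mean over all cells of the punch, in which fewer cells of a type and less RNA per cell cannot be told apart. The series names differential splicing between the genotypes as its question, and genes that encode splicing regulators are one place to ask it, at the level of the transcript and of the exon.

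hnRNPs bind nascent RNA in the nucleus and take part in splice site choice, packaging, export and stability of messenger RNA. Several of these proteins bind their own transcripts and lower their own level by favouring an exon that interrupts the reading frame, called a poison exon, or a retained intron, so that transcript goes to nonsense-mediated decay. In neurons, members of the group such as TDP-43, the product of Tardbp, and the proteins of Hnrnpa1, Hnrnpa2b1, Ewsr1, Taf15, Tia1 and Matr3 are known from inherited motor neuron and muscle disease.

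The alternative exons on which the isoform results rest are shown first, read from the NCBIM37 (mm9) genome on the strand of the gene, 5' to 3'. Capitals mark the exon as annotated and lower case the 20 intron bases before it and the 10 after it. Each was chosen because its inclusion separates known isoforms of a member, or, for Hnrnpl, because it is found only in transcripts annotated as nonsense-mediated decay or retained intron.
Hnrnpa2b1, B1 exon of 39 bases, chr6:51417390-51417428, minus strand: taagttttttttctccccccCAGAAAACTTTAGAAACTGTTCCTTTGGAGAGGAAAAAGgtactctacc
Hnrnpab, exon of 141 bases, chr11:51415252-51415392, minus strand: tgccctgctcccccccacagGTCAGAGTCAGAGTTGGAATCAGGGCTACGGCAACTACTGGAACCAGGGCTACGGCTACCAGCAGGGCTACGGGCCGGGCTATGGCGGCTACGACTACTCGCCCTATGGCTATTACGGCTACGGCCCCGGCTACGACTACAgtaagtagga
Hnrnpd, exon 2 of 57 bases, chr5:100405553-100405609, minus strand: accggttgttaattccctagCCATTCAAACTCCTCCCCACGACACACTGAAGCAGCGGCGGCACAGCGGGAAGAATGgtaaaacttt
Hnrnpd, exon 7 of 147 bases, chr5:100392750-100392896, minus strand: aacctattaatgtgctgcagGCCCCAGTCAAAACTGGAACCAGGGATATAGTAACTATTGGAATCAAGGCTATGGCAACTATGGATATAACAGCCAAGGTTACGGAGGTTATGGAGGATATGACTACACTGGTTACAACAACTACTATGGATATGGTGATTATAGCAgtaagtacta
Tia1, exon of 33 bases, chr6:86369095-86369127, plus strand: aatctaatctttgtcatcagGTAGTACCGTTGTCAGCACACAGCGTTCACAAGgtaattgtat
Pcbp2, exon of 93 bases, chr15:102316379-102316471, plus strand: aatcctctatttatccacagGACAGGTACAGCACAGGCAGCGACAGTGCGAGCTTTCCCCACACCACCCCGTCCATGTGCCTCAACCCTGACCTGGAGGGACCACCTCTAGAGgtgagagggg
Pcbp2, exon of 39 bases, chr15:102319207-102319245, plus strand: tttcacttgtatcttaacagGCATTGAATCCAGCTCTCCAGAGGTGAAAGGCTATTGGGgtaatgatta
Raly, exon of 48 bases, chr2:154685647-154685694, plus strand: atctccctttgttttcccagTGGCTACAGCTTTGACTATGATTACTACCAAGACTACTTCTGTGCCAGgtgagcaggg
Hnrnpl, noncoding exon of 70 bases, chr7:29602354-29602423, plus strand: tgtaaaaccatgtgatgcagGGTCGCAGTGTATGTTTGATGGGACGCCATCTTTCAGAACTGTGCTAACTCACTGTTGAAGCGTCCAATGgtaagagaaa
The 8 coding exons shown have lengths divisible by 3, so that including or skipping them keeps the reading frame, and the Hnrnpl exon does not. All but the Hnrnpa2b1 exon are preceded by AG in the intron; in Hnrnpa2b1 the annotated exon itself opens with CAG.

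Totals per mouse were 73.1 to 82.0 M counts in the gene table and 118.5 to 133.2 M in the exon table, where a read that crosses several exon bins counts in each. Exons are cut there into bins at every annotated exon boundary. The tissue label was met by its markers: all 12 listed genes of medium spiny neurons, the main striatal cell type, were detected, with a median of 438 CPM, the count scaled to library size. A pair of mice stood apart. One, a congenic male called mouse A below, had the highest summed level of 32 ribosomal protein genes, 10592 CPM, and the lowest of 8 cortical excitatory neuron markers, 152 CPM. The other, a wild-type animal labelled female and called mouse B below, had 208 counts of Xist, the RNA of the inactive X chromosome, against 75457 to 124747 in the 7 other labelled females and 102 to 1419 in the 8 males; it had 5 counts of the Y-linked gene Ddx3y, against 4912 to 6863 in males and 1 to 78 in the other labelled females. The counts of members by sex, and the members of smallest p, are therefore also given without that mouse.

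The levels of the members spanned a wide range, led in the gene table by a pair of RNA helicases and Hnrnpa2b1, whose protein binds many neuronal transcripts. Levels compared between genes are CPM divided by the exon length in kilobases (CPM per kb), with the union of all annotated exons as the length. The highest levels belonged to Ddx5, an RNA helicase that acts in splicing and microRNA processing, at 196 ± 9.04 CPM per kb (SD, n = 16), to Hnrnpa2b1 at 167 ± 6.35, and to Ddx17, the close relative of Ddx5, at 146 ± 7.14. In CPM, Ddx5 ranged from 1059 to 1238 over the 16 mice with a median of 1123 and was the gene of rank 68 of all genes tested. In the same unit Hnrnpa2b1 ranged from 645 to 735 with a median of 694, and Ddx17 from 634 to 755 with a median of 696. Below these came Matr3, a nuclear matrix protein, at 119 CPM per kb, Hnrnpk at 114, Hnrnpu, which binds nuclear scaffold DNA and RNA, at 99.7, and Hnrnpc at 93.4. The neighbours in this order Matr3 and Hnrnpk differed by less than the spread between mice of Matr3.

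The middle of the range held Pcbp1 (84.3 CPM per kb), Hnrnpul2 (68.9), Hnrnpab (64.7), Hnrnpa0 (55.1), Pcbp2 (54.6), Hnrnpm (53.0), Sfpq (51.8), Pcbp4 (49.0), Ewsr1 (44.5), Hnrnpd (39.5), Nono (39.05), Hnrnpr (38.3), Tardbp (35.5) and Hnrnpl (33.7). Raly (31.8), Hnrnpa3 (31.7), Taf15 (30.6), Hnrnpul1 (29.0), Khsrp (27.9) and Tial1 (24.0) followed in the same unit. The lowest levels were those of Pspc1 (14.5), Syncrip (12.9), Pcbp3 (12.004), Tia1 (8.47) and Hnrnpa1 (4.66). Within most families the levels were therefore far apart: the 6 KH-domain genes ranged from 12.004 for Pcbp3 to 114 for Hnrnpk, and Tial1 stood above its close relative Tia1, both of them genes for stress granule proteins that also bind introns. The order depends in part on the length and the table used. With the longest coding transcript in place of all exons, Tia1 was at 24.5 and Tial1 at 31.6, so the levels of this pair lay closer together. By that length Ddx5 was at 318 and Hnrnpu at 153, above Ddx17 at 146, and the 3 lowest were Hnrnpa1 (4.68), Pcbp3 (13.8) and Syncrip (14.9). The middle of the order changed too: Ewsr1 went from place 16 to place 7 (101.5) and Hnrnpl from place 21 to place 11 (74.9). By median count per start position in the exon table, over the bins held by the most coding transcripts of each gene, Hnrnpa2b1 came first (29.4), then Ddx5 (27.8) and Hnrnpa3 (17.6), and Ddx17 was in place 8 (10.1).

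**Figure D1:**
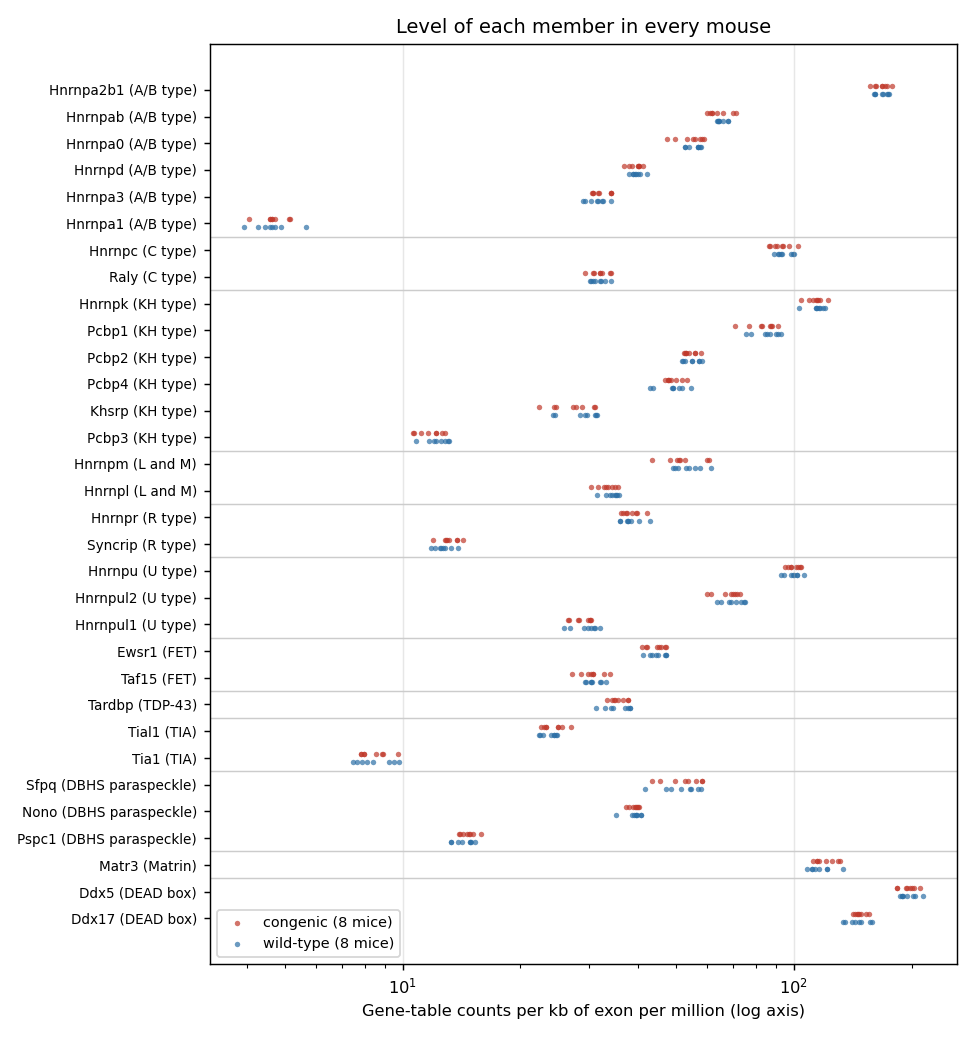
Level of each of the 32 genes in every mouse, in CPM per kb of exon on a log axis, with 8 congenic mice in red above 8 wild-type mice in blue and lines between families. Levels run from Hnrnpa1 (mean 4.66) to Ddx5 (mean 196), and the red and blue points of each gene overlap.

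Hnrnpa1 was counted very differently in the gene table and the exon table. Its protein, a founding member of the A/B type, represses exons and is among the most abundant hnRNPs of dividing cells. In the gene table it had 355 to 502 counts per mouse. That is 4.57, 5.22 and 5.81 CPM (lowest, median and highest of 8) in congenic and 4.42, 5.18 and 6.37 CPM in wild-type mice, with overlapping groups. In the exon table the bins of the same gene summed to 20478 to 26152 counts per mouse, 54.7 times the gene-table count on average and 45.0 to 66.3 times in single mice. For the 31 other members the same ratio was 0.966 (Hnrnpab) to 3.30 (Hnrnpa3), and for the members with a single exon bin, Hnrnpa0 and Pcbp1, the tables gave the same count in 26 of 32 mouse values and differed by at most 2 counts in the rest. By the median count per start position over the reference bins of each gene, those held by the most coding transcripts, Hnrnpa1 (11.6 counts) was 6th of the 31 members whose bins could be placed, between Hnrnpc (11.7) and Matr3 (11.3).

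Exact copies of part of the messenger RNA elsewhere in the genome went with this gene but not only with it. Of the 50-base windows of the longest Hnrnpa1 coding transcript, 82.9% occurred again in the NCBIM37 genome outside the gene, and 76.2% of the 100-base windows did. Hnrnpa3 had more, 89.3% of 50-base and 80.2% of 100-base windows. It was counted in the gene table at 174 ± 9.07 CPM in congenic and 169 ± 9.48 in wild-type mice. Its ratio of exon-table to gene-table counts, 3.30, was the highest of the 31 other members. The next were Nono (51.9% of 50-base windows), Hnrnpk (51.1%), Hnrnpr (36.3%), Ewsr1 (33.7%), Ddx5 (27.5%) and Hnrnpc (26.02%), while 13 members had no copied 50-base window. In the exon of the A1B form, of 159 bases, 92.6% of overlapping 100-base windows had no copy, and that exon alone held 1169 to 1542 counts per mouse, more than the whole gene had in the gene table. The sources used here do not give how the authors treated reads that map to several places, and the cause of the difference between the tables was not tested.

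**Figure D2:**
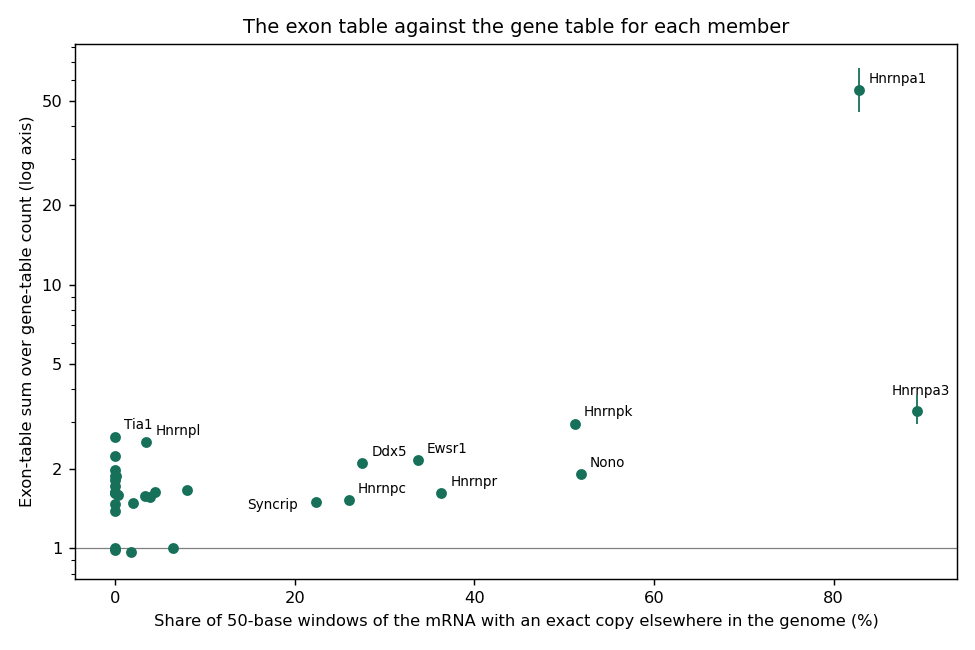
Ratio of the summed exon bins to the gene-table count for each of the 32 genes (log axis; points are means over 16 mice and bars the lowest and highest mouse) against the share of 50-base windows of its longest coding transcript with an exact copy elsewhere in the genome. Hnrnpa1 lies at 54.7, the other members between 0.966 and 3.30.

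The members varied little between mice. The coefficient of variation over all 16 mice had a median of 5.44% in the 32 genes, against 8.98% over all genes tested, and 28 of 32 lay below the latter. Over all genes tested, spread fell as level rose up to about 35 CPM. Above that it changed little, with a median of 6.19% near 35.2 CPM and 6.81% near 560 CPM. Each member was also set beside the 500 genes nearest to it in level: 24 of 32 lay below the median of these neighbours, and the median percentile was 34.5. The steadiest were Hnrnpd (3.31%), which encodes AUF1, a regulator of messenger RNA decay, Nono (3.59%) and Hnrnpu (3.71%). Hnrnpd ranged from 179 to 205 CPM with a median of 193, and only 6.20% of its neighbours in level were steadier.

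The widest spread was that of Khsrp (10.8%), an RNA decay and microRNA processing factor, Sfpq (10.3%), the paraspeckle and splicing protein PSF, and Hnrnpm (9.35%), a splicing factor of the nuclear matrix. Khsrp had its lowest value, 89.0 CPM, in mouse A, its highest, 125 CPM, in a wild-type male, and a median of 114 CPM. Sfpq ranged from 197 CPM in a wild-type female to 276 CPM in a congenic male with a median of 252 CPM. Hnrnpm ranged from 205 CPM in a congenic female to 289 CPM in a wild-type male with a median of 244 CPM. For all of these the extremes lay in different genotypes. Over the whole group, mouse A was the lowest animal for 8 members and a wild-type male for 6, and 3 other mice were each the highest for 5. The summed levels of ribosomal and cortical markers also stood apart in mouse A, as given above, and their part in this was not tested.

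**Figure D3:**
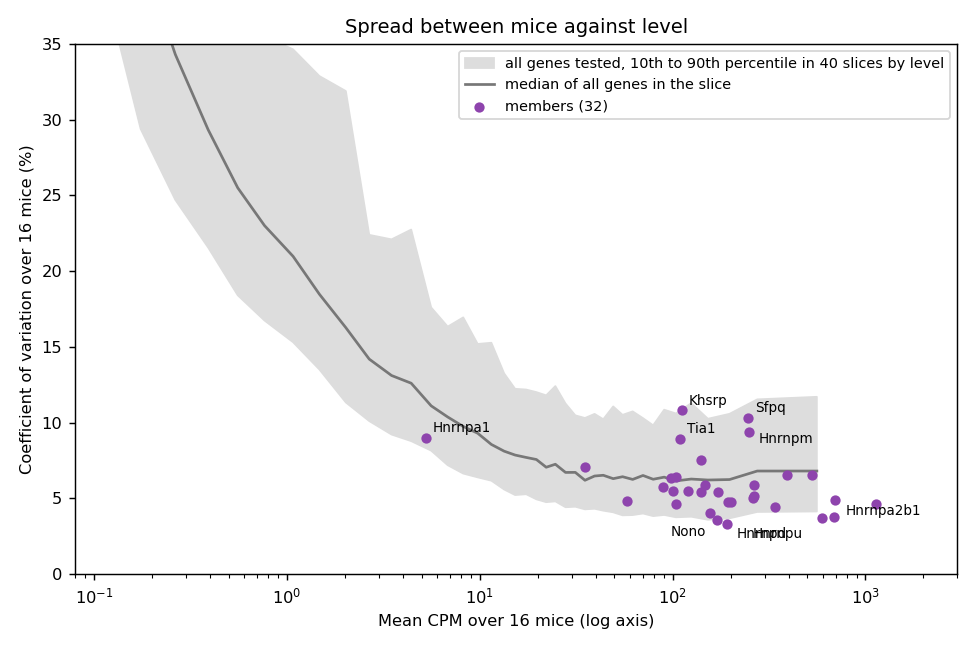
Coefficient of variation over 16 mice against mean CPM on a log axis for the 32 members (purple) and for all genes tested (grey line, median; grey band, 10th to 90th percentile, in 40 slices by level). Khsrp (10.8%), Sfpq (10.3%) and Hnrnpm (9.35%) lie highest, and Hnrnpd (3.31%) lowest, among the members.

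The first comparison asked whether the transcripts of these genes differ between congenic and wild-type mice. None was called: with the edgeR quasi-likelihood test 0 of 32 members had an adjusted p under 0.05, as had 0% of all 16716 genes, and 0 of 32 had an unadjusted p under 0.05, against 1.53% of all genes. DESeq2 and limma-voom also gave 0 members by either threshold. The log2 differences, congenic minus wild-type, ran from -0.08 for Khsrp to 0.05 for Syncrip with a median of -0.0036, against 0.0015 over all genes, and 14 of 32 were above 0. The data bound these differences closely. All 32 intervals at 95% lay within 0.25 on the log2 scale, as did 68.2% of all genes' intervals, and the outermost bounds were -0.22 for Khsrp, a level 13.9% lower, and 0.16 for Hnrnpa1, a level 11.6% higher.

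The smallest p for genotype was that of Pcbp3, a KH-domain protein that binds C-rich RNA. Its level was 31.1, 34.9 and 37.5 CPM (lowest, median and highest of 8) in congenic and 31.7, 36.3 and 38.5 CPM in wild-type mice, and the groups overlapped almost wholly. The log2 difference was -0.07 (SE 0.050, p = 0.180, edgeR). Syncrip, an RNA transport and editing cofactor of the R type, had 92.5, 101 and 110 CPM in congenic and 91.4, 97.7 and 107 CPM in wild-type mice, a log2 difference of 0.05 (SE 0.041, p = 0.199, edgeR). Hnrnpl, which binds CA repeats and regulates neighbouring exons, had 180, 199 and 211 CPM in congenic and 187, 206 and 212 CPM in wild-type mice, a log2 difference of -0.04 (SE 0.035, p = 0.238, edgeR). The adjusted p of each was 0.999, and the values of the groups overlapped in all 3 genes. Marker lists also differed in direction between the genotypes, with 0 markers called. Of the cortical markers 7 of 8 had negative log2 differences, with a median of -0.48 over all 8. Their summed level was 152 to 368 CPM in congenic mice (median 203) and 186 to 356 CPM in wild-type mice (median 279). Of the ribosomal protein genes 32 of 32 had positive differences, with a median of 0.09. With a score of the cortical markers as a covariate the differences were -0.03 for Pcbp3, 0.03 for Syncrip and -0.02 for Hnrnpl (edgeR). The part of the ribosomal list was not tested.

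By family, the genotype differences were small everywhere. The A/B genes lay between -0.03 and 0.04 on the log2 scale, the U type between -0.05 and 0.01, and the paraspeckle genes between 0.00019 and 0.03. The KH-domain genes lay between -0.08 and 0.01, with 1 of 6 above 0. Tardbp, which encodes a repressor of cryptic exons, differed by 0.01 (95% interval -0.08 to 0.10), Matr3 by 0.04 (-0.05 to 0.14), Ewsr1 by -0.01 (-0.10 to 0.07) and Taf15 by -0.02 (-0.11 to 0.07). For Hnrnpa1 the summed exon counts had a smaller error than the gene-table counts. They were 177 ± 10.7 CPM in congenic mice and 174 ± 9.29 CPM in wild-type ones (SD, n = 8 each). The log2 difference was 0.03 (SE 0.038, p = 0.50, edgeR). With exon bins summed per gene for the whole table, a fit added after the data had been seen, 0 of 32 members were called for genotype, as were 0% of 18737 genes.

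A list of 29 other nuclear RNA-binding proteins and nuclear RNAs, among them the Ptbp genes and the hnRNP H and F genes, gave 0 calls for genotype and 0 at an unadjusted p under 0.05 in the same edgeR fit. Its smallest p values were those of Rbmx (p = 0.286, edgeR) and Ptbp2, the neuronal polypyrimidine tract binding protein (p = 0.288, edgeR). Rbmx had 101 ± 3.57 CPM in congenic and 98.6 ± 2.26 in wild-type mice, and Ptbp2 98.3 ± 4.35 and 95.7 ± 5.40 CPM.

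**Figure D4:**
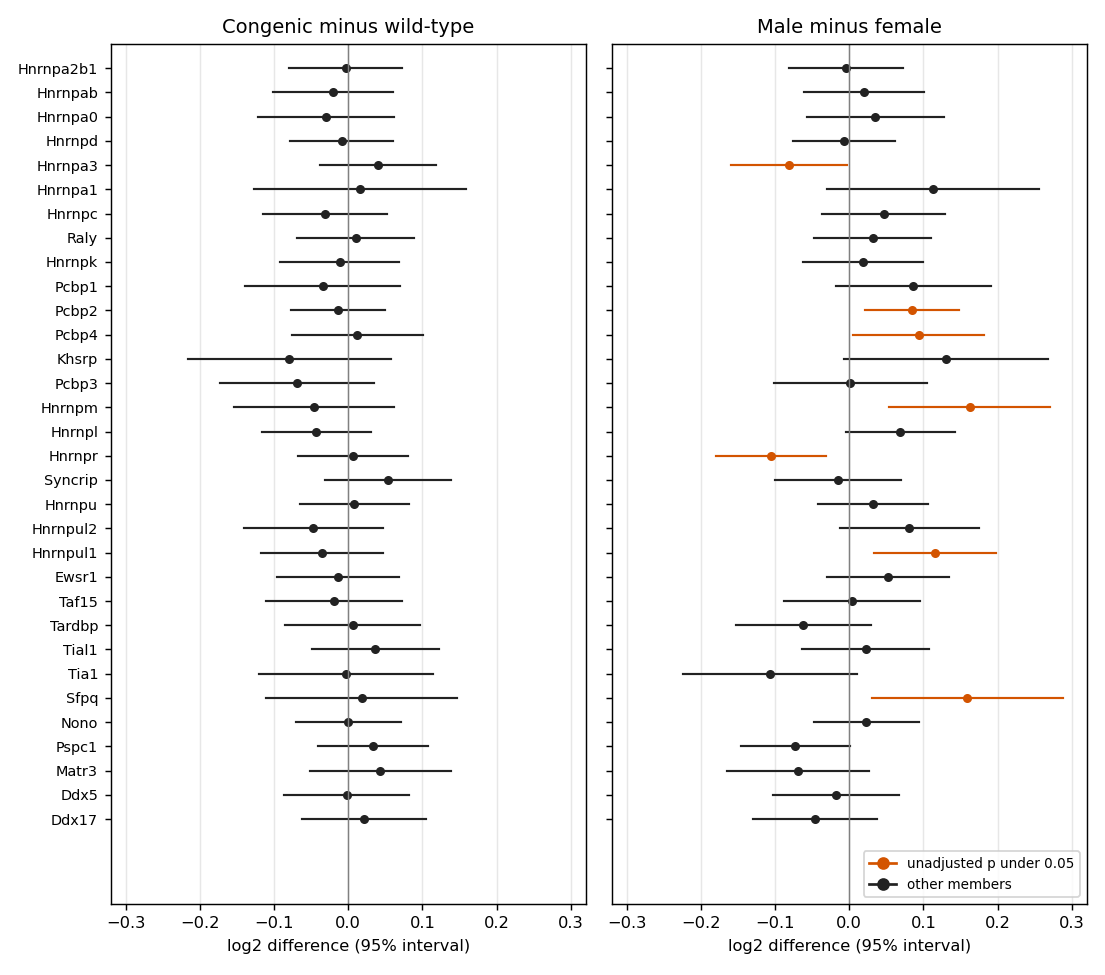
Log2 difference in level for each of the 32 genes with its 95% interval from the edgeR fit, congenic minus wild-type on the left and male minus female on the right, with unadjusted p under 0.05 in orange. All intervals for genotype cover 0, and 7 of those for sex do not, though no member passed after adjustment.

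The second comparison, between males and females over both genotypes, likewise gave 0 calls among the 32 members with edgeR, against 0.138% of all genes (23 genes). Mouse numbers follow sex in part, with most females numbered after every male. Sex and mouse number can therefore not be cleanly told apart in any sex comparison here, for genes or for exon bins. The smallest adjusted p of a member was 0.190, and DESeq2 and limma-voom also called 0. At an unadjusted p under 0.05 there were 7 members, a share of 21.9%, against 14.7% of all genes. Of the 7, 5 had higher means in males and 2 lower. Without mouse B there were also 7, with 0 called and a smallest adjusted p of 0.290, but not the same genes: Hnrnpa3 was no longer among them (unadjusted p = 0.058) and Pspc1, a paraspeckle gene, was (log2 -0.10, unadjusted p = 0.0079, against -0.07 and p = 0.054 with all mice, edgeR). Still by edgeR, without mouse A there were 12, with 0 called. Marker lists differed between the sexes in direction as well, with 0 markers called. All 12 medium spiny neuron markers had positive log2 differences, male minus female. Their summed levels were 8287 to 9522 CPM in males (median 8877) and 7653 to 9231 CPM in females (median 8519). Of the cortical markers 7 of 8 had negative differences, with a median of -0.62 over all 8. Their summed levels were 152 to 356 CPM in males (median 197.5) and 164 to 368 CPM in females (median 300.4). No marker of either list was at 0. Positive differences were also found for 32 of 32 ribosomal protein genes (9 at an unadjusted p under 0.05) and 5 of 6 microglial markers (4 at that threshold). Of 6 oligodendrocyte markers 5 had negative differences, down to -0.23, and the positive one was 0.0039. Among all 6 of these, 1 was below that threshold. The part of these lists other than the cortical one was not tested. With the cortical marker score as a covariate, 0 members were called and 9 had an unadjusted p under 0.05 in the edgeR fit; Sfpq went from a log2 difference of 0.16 to 0.11 (unadjusted p = 0.091) and Pcbp4 stayed at 0.09 (unadjusted p = 0.089), so neither was among the 9.

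Hnrnpm had the smallest p for sex. It ranged over 227, 267 and 289 CPM (lowest, median and highest of 8) in males and 205, 239 and 250 CPM in females, with most males above every female. The log2 difference, male minus female, was 0.16 (SE 0.052, unadjusted p = 0.0052, edgeR adjusted p = 0.190) and 0.15 without mouse B. Hnrnpr, which binds neuronal messenger RNA and shares most of its domains with Syncrip, had 113, 117 and 122 CPM in males and 117, 125 and 136 CPM in females, with overlapping groups. Its log2 difference was -0.10 (SE 0.036, unadjusted p = 0.0079, edgeR adjusted p = 0.208), and -0.12 without mouse B. Hnrnpul1, a U-type protein of transcription and DNA repair, had 100.5, 109 and 115 CPM in males and 92.7, 98.5 and 108 CPM in females, a log2 difference of 0.12 (SE 0.039, unadjusted p = 0.0084, edgeR adjusted p = 0.210), and 0.10 without mouse B; the groups overlapped.

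The 4 other members below the unadjusted threshold were Pcbp2 (log2 difference 0.08), Sfpq (0.16), Pcbp4 (0.09) and Hnrnpa3 (-0.08), with edgeR adjusted p of 0.224 to 0.325. Without mouse B their log2 differences were 0.08, 0.15, 0.10 and -0.08. Sfpq had 230, 258 and 276 CPM in males and 197, 230 and 269 CPM in females, and the ranges overlapped over most of their length. For Hnrnpa3 the exon table gave a log2 difference of 0.0087 in place of -0.08, and for Hnrnpa1 it gave -0.09 (unadjusted p = 0.024, edgeR adjusted p = 0.309) in place of 0.11, so the direction for both of these genes depended on the table. With exon bins summed per gene, 0 of 32 members were called for sex, against 0.0907% of all genes. Of the 29 other RNA-binding protein genes 0 were called for sex and 3 had an unadjusted p under 0.05; the smallest were those of Rbm14 (31.7 ± 3.35 CPM in males and 28.1 ± 1.98 in females; edgeR adjusted p = 0.224) and Hnrpdl (246 ± 20.6 and 267 ± 7.74 CPM; adjusted p = 0.259).

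Nono is the member on the X chromosome (98624657 to 98643930 on NCBIM37) and encodes a paraspeckle protein that pairs with the product of Sfpq. Males had 172 ± 3.89 CPM and females 169 ± 7.83 CPM (SD, n = 8 each). The log2 difference was 0.02 (p = 0.505, edgeR). Mouse B had 153 CPM, below the 163 to 178 CPM of the 15 other mice. Without it the 7 other labelled females had 172 ± 4.58 CPM, the log2 difference was -0.0012 (p = 0.968, edgeR), and the coefficient of variation over the 15 mice was 2.37% in place of 3.59%.

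Whether the genotype difference itself differed between the sexes was tested with an interaction term. It was called for 0 of 32 members with edgeR, as for 0% of all genes, and 1 of 32 (3.13%) had an unadjusted p under 0.05, against 4.18% of all genes. This was Tia1, whose protein promotes exon inclusion at weak splice sites. Its level was 109 ± 6.75 CPM in congenic females, 118 ± 9.39 in wild-type females, 110 ± 11.5 in congenic males and 102 ± 5.06 in wild-type males (SD, n = 4 each). The difference of differences was 0.23 on the log2 scale (unadjusted p = 0.038, edgeR adjusted p = 0.967). Its highest values came from mouse A (126 CPM) and mouse B (126 CPM), the animals that stood apart above. Leaving out either of them left 0 members below the unadjusted threshold. The same held when any of several other mice, of both genotypes and sexes, was left out, so it was not particular to mice A and B.

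At the level of exons, 31 of the 32 members had as many deposited bins as a rebuild from GENCODE on NCBIM37 gave. Hnrnpk has 69 deposited and 32 rebuilt bins, so its bins could be tested but not placed. Hnrnpa0 and Pcbp1 have 1 bin each and no bin to compare it with. Of 849 member bins 790 in 30 genes were tested for use relative to the rest of the gene with edgeR's diffSpliceDGE. For genotype 0 of 790 were called, against 0.000425% of all bins tested (1 of 235478), and 6 had an unadjusted p under 0.05, a share of 0.759% against 1.05% of all bins. By gene, 0 of 30 members were called with the Simes method against 0.00672% of all genes (1 gene), and limma's diffSplice also called 0. Log2 differences in use ran from -0.38 to 0.70, and 774 of 790 lay within 0.25.

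The member bin of smallest p for genotype was bin 69 of Hnrnpk, with 19.4 counts per mouse on average. It took 0.0306 ± 0.0072% of the gene's exon reads in the 8 congenic and 0.0189 ± 0.0036% in the 8 wild-type mice (SD). The log2 difference in use was 0.70 (unadjusted p = 0.0029, adjusted p = 1, edgeR). Next was the 24-base bin at the start of Hnrnpc, whose protein binds U-rich RNA and keeps cryptic exons out. Its share was 0.178 to 0.304% in congenic and 0.270 to 0.405% in wild-type mice, ranges that overlap, with a log2 difference of -0.34 (unadjusted p = 0.0060, adjusted p = 1, edgeR). The other 3 of the 5 smallest were bins of Hnrnpa3 (0.32), Tia1 (0.58) and Hnrnpu (0.52), each found only in retained-intron or processed transcripts and with a mean of 57.4, 17.2 and 15.1 counts per mouse. All 5 bins held a small part of their gene's counts, at most 0.318% in either group's mean.

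No difference between the genotypes was called in the known cassette exons. Relative use is the count per start position of a bin divided by that of the reference bins of the gene, so that 1 stands for the level of those bins. It depends on the read length assumed and can exceed 1, so it is not an exact inclusion rate. On average over the mice, 102 cassette bins of members had at least 20 counts. The B1 exon of Hnrnpa2b1, which adds a short N-terminal stretch and separates B1 from the shorter A2, had a relative use of 0.106 ± 0.0082 in congenic and 0.110 ± 0.0060 in wild-type mice (SD, n = 8 each), from 0.0909 to 0.116 over all 16. So the shorter A2 form made up most of the transcript in every mouse. The exon of the A1B form of Hnrnpa1 stood at 0.459 ± 0.032 and 0.459 ± 0.030, but 6 of the 9 reference bins it is set against consist of windows with copies elsewhere, which bears on its absolute value.

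Hnrnpd makes 4 proteins from its exons 2 and 7. Exon 7, printed above, had a relative use of 0.802 ± 0.027 in congenic and 0.805 ± 0.017 in wild-type mice. The first and second parts of exon 2 had 0.561 ± 0.037 and 0.677 ± 0.037 in congenic and 0.540 ± 0.047 and 0.654 ± 0.055 in wild-type mice. In Hnrnpab, the close relative of Hnrnpd, the parts of the 141-base exon had 0.312 ± 0.034 and 0.405 ± 0.038 in congenic and 0.323 ± 0.019 and 0.397 ± 0.037 in wild-type mice. The short exon of Tia1, which separates its main proteins, had 0.553 ± 0.074 and 0.553 ± 0.058. In Pcbp2 the exon of 93 bases had 0.635 ± 0.041 and 0.624 ± 0.029, and that of 39 bases 0.957 ± 0.051 and 0.925 ± 0.040. In Tardbp, whose last exon is spliced in several ways, the 587-base bin of the coding part had 0.893 ± 0.065 and 0.894 ± 0.062. For every exon in this paragraph the groups overlapped, and the unadjusted p of the usage test for genotype was 0.349 or more (edgeR).

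The exon of Raly was the rarest of those shown. Its relative use was 0.044 ± 0.014 in congenic and 0.054 ± 0.0035 in wild-type mice, with 17 to 53 counts per mouse, and the log2 difference in use was -0.32 (unadjusted p = 0.075, adjusted p = 1, edgeR). The spread between congenic mice, from a relative use of 0.022 to 0.066, covered every wild-type value, 0.049 to 0.060.

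**Figure D5:**
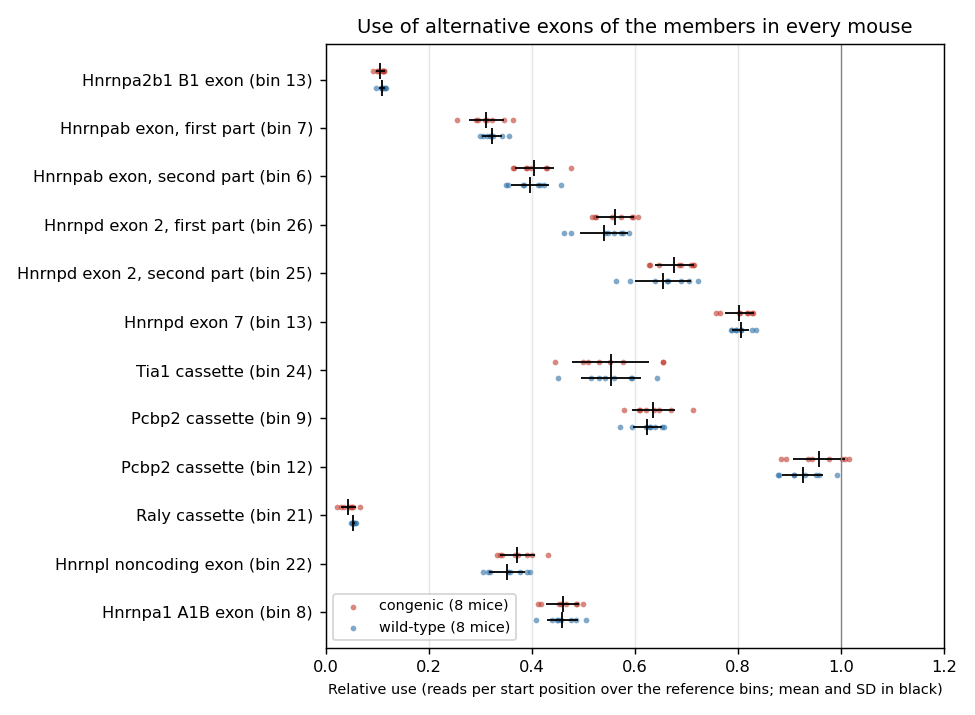
Relative use of 12 alternative exon bins of 8 genes in every mouse, congenic in red and wild-type in blue, with mean and SD of 8 mice in black. Values run from 0.049 for Raly to 0.941 for the 39-base exon of Pcbp2 (means over 16 mice), and red and blue overlap for every exon.

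Transcript forms that do not code for the full protein made up a large share of the counts of a few members. Bins found only in transcripts annotated as nonsense-mediated decay, retained intron or processed transcript took 24.8 ± 0.902% of the exon reads of Tia1 in congenic mice and 24.7 ± 1.29% in wild-type ones (SD, n = 8 each). They took 21.5 ± 0.994% and 20.7 ± 1.28% of those of Hnrnpl. The shares were 12.1 ± 0.679% and 11.99 ± 0.560% for Ddx5, 10.9 ± 0.734% and 10.6 ± 0.654% for Ewsr1, and 8.44 ± 0.433% and 7.97 ± 0.341% for Tial1. Sfpq had 6.28 ± 0.430% and 6.03 ± 0.947%, and Hnrnpu 4.50 ± 0.455% and 4.38 ± 0.555%. Retained introns of finished transcripts and introns of unspliced precursor RNA cannot be told apart in these shares.

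Hnrnpl is a textbook case of a poison exon, by which its protein limits its own transcript. The 70-base noncoding exon had a relative use of 0.372 ± 0.034 in congenic and 0.352 ± 0.035 in wild-type mice (SD, n = 8 each), from 0.305 to 0.432 over all 16, with 365 to 520 counts per mouse. The log2 difference in use was 0.09 (unadjusted p = 0.209, edgeR). The flanking retained-intron bins of 1584 and 627 bases had 0.441 ± 0.046 and 0.422 ± 0.047 in congenic and 0.429 ± 0.034 and 0.421 ± 0.039 in wild-type mice. The order of the exon and the intron sequence on its sides depends on the read length assumed: with 50 in place of 100 bases the exon had 0.308 and those bins 0.269 and 0.271.

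Between the sexes 0 of 790 member bins were called with edgeR, against 0.0157% of all bins (37 bins), and 0 of 30 genes by the Simes method, against 0.128% of all genes (19 genes). At an unadjusted p under 0.05 (edgeR) there were 45 bins, a share of 5.70% against 3.27% of all bins, 16 with greater use in males and 29 with less. With bins of overlapping genes also counted, 58 of 858 were below that threshold. Without mouse B this was 46 of 859, and without mouse A 77 of 860. Calls among member bins were also 0 with limma's diffSplice and in the fit without mouse B. All other bin values and shares by sex here keep mouse B among the females. Of 83 bins of noncoding transcripts, 54 had negative log2 differences, male minus female, and of the 15 with an unadjusted p under 0.05, 14 were negative. Of these 14, 6 lie in Tia1, 3 in Hnrnpu, 2 in Sfpq, 2 in Tial1 and 1 in Hnrnpm, and bins of 1 gene share their transcripts and are not independent. By genotype 55 of the same 83 bins were positive, congenic minus wild-type, and 4 had an unadjusted p under 0.05. Neither count was tested, nor set beside noncoding bins of other genes. For coding cassette bins 63 of 104 were positive between the sexes, male minus female, and 6 had an unadjusted p under 0.05. By genotype 47 of these 104 were positive, and 0 had an unadjusted p under 0.05.

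The smallest p for sex was that of a 108-base retained-intron bin of Tial1, chr7:135592285-135592392. It took 0.102 ± 0.031% of the gene's counts in males and 0.161 ± 0.037% in females (SD, n = 8 each), with ranges of 0.041 to 0.144% and 0.132 to 0.245% that overlap slightly. The log2 difference in use was -0.67 (unadjusted p = 0.00090, edgeR adjusted p = 0.687). A retained-intron bin of 1590 bases of Tia1 had 0.220 ± 0.081% and 0.308 ± 0.075% (log2 -0.48). The 5 smallest also included a coding bin of Syncrip (log2 -0.40), a bin near the 3' end of Pcbp3 (-0.22) and a processed-transcript bin of Sfpq (-0.26) that overlaps the gene Gm12940. The noncoding share of Tia1 as a whole was 23.96 ± 0.596% in males and 25.5 ± 0.871% in females, that of Sfpq 5.81 ± 0.539% and 6.50 ± 0.744%, and that of Hnrnpu 4.20 ± 0.542% and 4.68 ± 0.318%. In other members the share was as high or higher in males: 12.1 ± 0.736% and 11.99 ± 0.480% for Ddx5, 10.8 ± 0.671% and 10.7 ± 0.740% for Ewsr1, and 0.903 ± 0.124% and 0.789 ± 0.149% for Hnrnpd. Of the noncoding bins tested, 21 of 24 in Tia1 had lower use in males, against 2 of 8 in Ddx5, 3 of 7 in Ewsr1 and 0 of 4 in Hnrnpd. These shares and bin counts were not tested between the sexes.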

How the data were processed

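RNA-seq counts of striatal punches from 16 mice were used. The authors deposited whole-number counts per gene and per exon bin for 48 runs, 3 lanes per mouse, not normalised. Per the submitters' processing notes the tools were edgeR 3.8.6, limma 3.22.7, HTSeq 0.6.1p1 and FastQC 0.10.1, and the builds mm9 and mm10. The aligner, the strand setting and the treatment of reads with several hits are not given in the sources used here, and the labels disagree on read length (50 or 100 bases), which bears on relative use. Lanes were summed per mouse.

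Computed here, with R 4.3.3, edgeR 4.0.16, DESeq2 1.42.0, limma 3.58.1 and Python 3.11.15: genes that reached 10 counts, scaled to library size, in too few mice, or had under 15 in total, were dropped (filterByExpr). The rest were scaled by TMM. The edgeR quasi-likelihood test was fitted on the whole table, with sex as covariate for genotype and genotype for sex, and a product term for the interaction. Calls needed a Benjamini-Hochberg adjusted p under 0.05 over all features tested. Exon bins were tested with diffSpliceDGE, whose natural-log coefficients were converted to log2. The exon bins of a gene were rebuilt from GENCODE vM1 on NCBIM37, where 16977 of 17389 genes with at least 5 bins had as many as deposited (97.6%). Counts of the exon table for members were compared with the gene table, and exact 50-base and 100-base windows of each longest coding transcript were searched on both strands of the genome. Relative use assumed reads of 100 bases. The scripts were tested on simulated data.

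Members and lists were chosen with earlier results of these data known. Genes given in full were the 3 highest and lowest in level and spread, the 3 of smallest p for genotype and for sex, the smallest p for the interaction, and the 5 bins of smallest p in each comparison; of cassette bins with at least 20 counts, those of 10 listed genes with textbook isoforms; of other RNA-binding proteins, the pair of smallest p. Alternatives were other tools and scalings, no filter, no covariate, single lanes, a cortical marker score as covariate, each mouse left out, and, added after seeing the data, exon bins summed per gene. The sequence of a further cassette exon is not reported here.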

Additional observations from a re-analysis of the deposited data

Results flagged for a closer look

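In groups of 8 mice, 88 sets of values (32 genes and 12 exon bins, each in both genotypes) were examined for a mouse far from the rest, and chance alone picks out about 1 set in 20. Of the 88 sets 2 stood out, which is no more than that rate would give. Both were of the same animal, mouse B of the text, a wild-type animal labelled female without the Xist level of the other females or the Ddx3y level of males. Its Nono level was 153 CPM, with the nearest of the other 7 wild-type mice at 169 CPM and the highest at 178 CPM. Its Hnrnpk level was 308 CPM, with the nearest at 340 CPM and the highest at 358 CPM; the lowest of the 15 other mice had 312 CPM. Nono lies on the X chromosome and Hnrnpk on chromosome 13. What sets this mouse apart was not tested.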

How the results depend on the processing

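The 0 calls for genotype, sex and their interaction among the 32 members held in all 72 combinations of alternative setting and comparison at gene level. The 0 calls among member bins held in all 10 at exon level. Genotype and sex mostly came from the same fit, so these are not all separate fits. At an unadjusted p under 0.05 the members counted for sex ran from 5 (lane 4 alone, or without any of 3 mice) to 12 (without mouse A of the text, the congenic male), and for genotype from 0 to 1 (lane 3 alone); members above 0 for genotype ran from 10 to 23 (without mouse A). All genes called for sex numbered 23 with edgeR, 259 with DESeq2, 19 with limma-voom and 12 to 76 when a mouse was left out. With exon bins summed per gene, chosen after seeing the data, the sex difference changed direction for Hnrnpa1 (-0.092, from 0.11) and Hnrnpa3 (0.0087, from -0.08). With the longest coding transcript as length the median level of the members was 56.6 in place of 42.0 CPM per kb. With reads of 50 bases the relative use was 0.635 and 0.854 for the first and second parts of Hnrnpd exon 2, 0.418 for the first part of the Hnrnpab exon, 0.308 for the Hnrnpl exon, and 0.124 for the B1 exon; the median over cassette bins was 0.851 in place of 0.863. No paired analysis was made, because the replicate number is that of the single mouse and the labels used here name no litter.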
